A study of Rattus norvegicus with 6 samples.

Results

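The C1q/TNF-related proteins are described here by 6 genes, C1qtnf1, C1qtnf2, C1qtnf3, C1qtnf6, C1qtnf7 and C1qtnf9, out of 32883 rows with a gene name in a heart RNA-seq count table. The rows were taken by symbol, and no member's symbol was repeated in the table. The set was selected on the measured rise of C1qtnf3 counts in treated against control hearts, so every value of the members in that same contrast is a description and not a test result. The table holds 9 C1qtnf symbols in all, and the other 3 are treated below with further C1q domain genes.

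Hearts came from wild-type male Sprague–Dawley rats, an outbred strain, aged 8 weeks and weighing 250 to 300 g. The 3 rats of the saline group received saline under the skin for 7 days, and the 3 rats of the ISO group received ISO by the same route at 1.5 mg/kg/day for 7 days. The labels do not spell ISO out. It is taken to mean isoproterenol, which activates beta-adrenergic receptors and was given in this series to model myocardial hypertrophy and fibrosis. Each library came from its own rat, and the labels do not say which chambers of the heart were sampled.

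C1q/TNF-related proteins, also called CTRPs, are secreted relatives of the fat hormone adiponectin. Each has a collagen-like stalk and a globular C1q domain at its end, and the chains assemble into trimers and larger complexes. Several act on glucose and lipid metabolism, and some have been studied as signals in the heart and vessel wall. C1qtnf3 encodes CTRP3, first described in cartilage and also made by fat cells. C1qtnf9 encodes CTRP9, a close relative of adiponectin that acts in part through the adiponectin receptor AdipoR1. C1qtnf6 encodes CTRP6, which has been linked to complement control, and C1qtnf1 encodes CTRP1, which binds fibrillar collagen. C1qtnf2 and C1qtnf7 encode CTRP2 and CTRP7, which have been studied mainly in metabolism.

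The sequence before the annotated start is shown for 3 members, to set the 2 whose groups did not overlap beside the member with a different library pattern. C1qtnf3 and C1qtnf6 were highest in ISO replicate 3, whereas C1qtnf9 was highest in ISO replicate 2. The 250 bases before each start come from RefSeq, build GRCr8, read 5′ to 3′ along the gene's strand. They lie at chr2:61644066-61644315 on the plus strand, chr7:111964865-111965114 on the minus strand and chr15:39091189-39091438 on the plus strand. Capitals mark matches to any of 5 motifs searched on both strands, which were chosen after the sequences had been seen.
C1qtnf3: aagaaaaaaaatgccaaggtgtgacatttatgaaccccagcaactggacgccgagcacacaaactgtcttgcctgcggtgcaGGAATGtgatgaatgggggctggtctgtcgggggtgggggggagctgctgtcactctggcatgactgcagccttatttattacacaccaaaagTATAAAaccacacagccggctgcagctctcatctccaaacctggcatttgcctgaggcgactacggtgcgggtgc
C1qtnf6: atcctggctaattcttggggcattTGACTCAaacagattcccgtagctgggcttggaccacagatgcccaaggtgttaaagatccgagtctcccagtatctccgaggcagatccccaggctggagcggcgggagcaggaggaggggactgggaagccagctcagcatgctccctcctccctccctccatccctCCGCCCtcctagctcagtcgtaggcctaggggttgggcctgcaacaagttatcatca
C1qtnf9: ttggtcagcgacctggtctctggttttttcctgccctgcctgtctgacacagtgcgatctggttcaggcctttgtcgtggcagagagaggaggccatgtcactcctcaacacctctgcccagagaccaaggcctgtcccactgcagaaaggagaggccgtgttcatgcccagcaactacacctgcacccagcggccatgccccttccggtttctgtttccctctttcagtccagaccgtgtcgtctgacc

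The motifs were the TATA box TATAAA, the AP-1 motif TGANTCA, the cyclic AMP response element TGACGTCA, the GC box GGGCGG and the TEAD motif GGAATG. No matches overlapped. C1qtnf3 held TATAAA, 75 bases before its start, a motif found in 13.1% of the 27457 promoter windows of this length. It also held GGAATG, 168 bases before the start, found in 11.8% of windows. C1qtnf6 held TGANTCA, 226 bases before its start, found in 6.36% of windows, and the GC box on the opposite strand, 57 bases before its start, found in 32.4%. C1qtnf9 held none of the 5, and TGACGTCA, present in 1.70% of windows, was found in no member's window. Windows were matched for 5 of the 6 members, without C1qtnf1. A match is a string of letters and not a measured binding site.

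Libraries held 14880391 to 17299589 counts, and mitochondrially encoded genes took 20.9% to 28.8% of the named counts. Values below are CPM, library-size scaled counts, after TMM scaling, and levels are not compared between genes because no transcript lengths were used. A count of 3 corresponded to 0.175 to 0.204 CPM, taken here as the counting floor. Cardiomyocyte genes were abundant in every library, with Myh6, the alpha myosin heavy chain gene, between 10390 and 23395 CPM. Some libraries stood apart from the others of their group. ISO replicate 3 lay farthest from saline on the first principal component of log2 CPM, at 49.1. ISO replicate 1 lay next, at 28.8, and ISO replicate 2 nearest, at 7.56. ISO replicate 1 held RNA of atrial genes, such as the atrial myosin light chain gene Myl7 (chosen after its values were seen), at 70.7 CPM against at most 1.56 CPM in the other 5 libraries. Each member's change is therefore also given without single ISO libraries.

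C1qtnf3 was nearly silent in saline hearts and was measured in every ISO heart. It had 3, 7 and 5 counts in saline replicates 1 to 3, and 68, 23 and 279 counts in ISO replicates 1 to 3. In CPM the saline libraries stood at 0.204, 0.438 and 0.316 and the ISO libraries at 4.26, 1.43 and 16.3. The groups did not overlap, and the saline values lay at or just above the counting floor. Within the ISO group the highest library, replicate 3, stood 51.0-fold above the saline mean, replicate 1 stood 13.3-fold above it and replicate 2 stood 4.49-fold above it.

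Group means were 7.32 ± 7.88 CPM in ISO and 0.319 ± 0.117 CPM in saline (SD, n = 3 each), so the ISO spread was as large as its mean. The fitted log2 fold change was 4.48 (SE 0.93), the 9th largest of 13766 tested genes. Over each whole group, 370 counts stood against 15. Divided by the TMM-scaled library sizes they gave a ratio of 23.3, with an exact interval of 14.0 to 42.1 at the 95% level that covers counting error only. Without ISO replicate 3 the log2 fold change was 3.12, an 8.70-fold difference in place of 22.3-fold, so this library moved the size by more than any other. It was 4.74 without ISO replicate 1 and 4.96 without ISO replicate 2. Bulk tissue cannot tell more cells of a type from more RNA per cell, here and for each gene below.

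**Figure D1:**
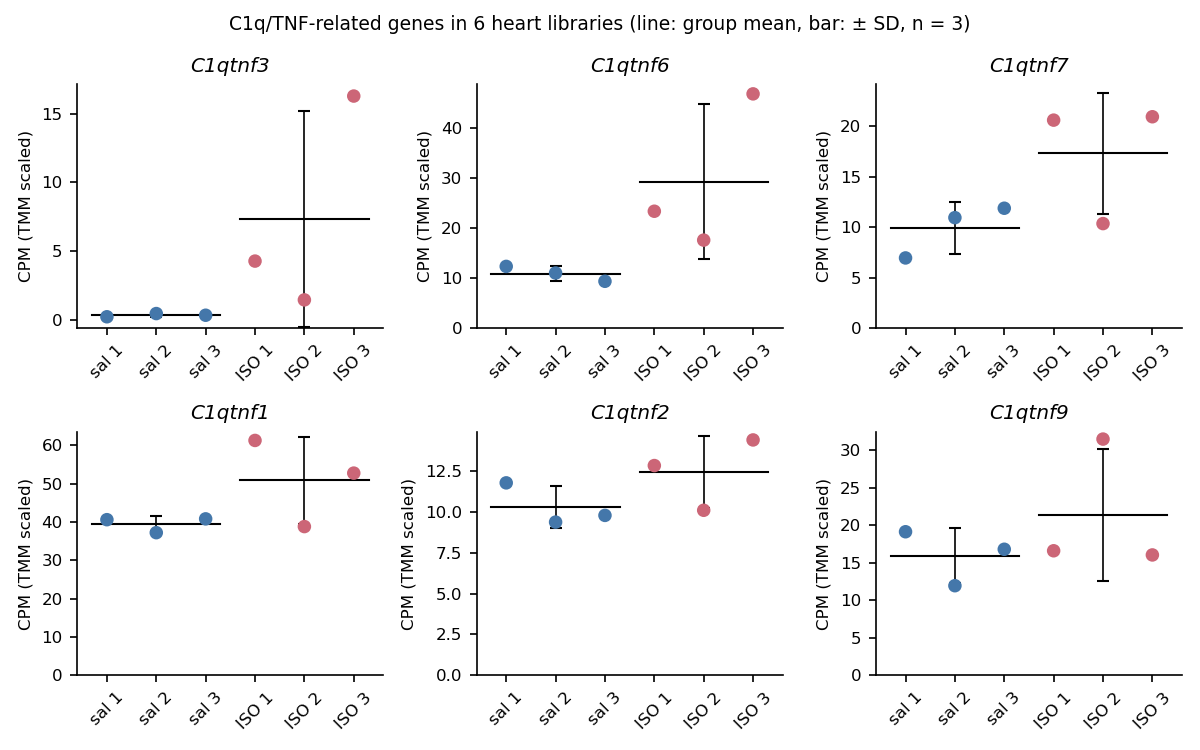
TMM-scaled CPM (y axis, linear, a separate scale per gene) of the 6 genes in each library (x axis; blue saline, red ISO); lines are group means and bars ± SD, n = 3. ISO values exceed every saline value for C1qtnf3 and C1qtnf6 and overlap saline for the other 4 genes.

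C1qtnf6 followed C1qtnf3 in the order of its ISO libraries, with a smaller difference. Saline replicates 1 to 3 had 12.3, 11.0 and 9.35 CPM, and ISO replicates 1 to 3 had 23.4, 17.6 and 46.9 CPM. Every ISO library was above every saline library, and ISO replicate 3 was the highest. The means were 29.3 ± 15.5 CPM in ISO and 10.9 ± 1.49 CPM in saline (SD, n = 3), and the log2 fold change was 1.43 (SE 0.34). It was 0.91 without ISO replicate 3, 1.56 without ISO replicate 1 and 1.69 without ISO replicate 2.

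C1qtnf7 was higher in ISO replicates 1 and 3 than in any saline library, while ISO replicate 2 lay within the saline range. The saline values were 6.95, 10.9 and 11.9 CPM in replicates 1 to 3, and the ISO values were 20.6, 10.4 and 20.9 CPM. The log2 fold change was 0.80 (SE 0.30), and it was 0.65 without ISO replicate 1, 1.06 without ISO replicate 2 and 0.64 without ISO replicate 3. Without saline replicate 1, the lowest library, it was 0.60.

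C1qtnf1 likewise had its lowest ISO value in replicate 2, with a smaller difference between groups. Its saline libraries lay close together, at 40.6, 37.2 and 40.8 CPM, against ISO values of 61.3, 38.8 and 52.7 CPM for replicates 1 to 3. ISO replicate 2 again fell within the saline range and the other ISO libraries lay above it. The log2 fold change was 0.37 (SE 0.16), and it was 0.20 without ISO replicate 1, the library with atrial RNA, 0.52 without ISO replicate 2 and 0.34 without ISO replicate 3.

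C1qtnf2 differed least. Its saline libraries, replicates 1 to 3, held 11.8, 9.38 and 9.79 CPM, and its ISO libraries 12.8, 10.1 and 14.4 CPM. ISO replicates 1 and 3 were above all saline libraries, ISO replicate 2 lay between them, and the log2 fold change was 0.27 (SE 0.18). It was 0.16 without ISO replicate 3, 0.24 without ISO replicate 1 and 0.40 without ISO replicate 2.

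C1qtnf9 had a library pattern unlike the other members. Its values were 19.1, 11.9 and 16.8 CPM in saline replicates 1 to 3, and the ISO libraries held 16.6, 31.5 and 16.0 CPM. ISO replicate 2, the lowest ISO library for all 5 other members, was the highest library for C1qtnf9, and the other ISO libraries lay inside the saline range. The log2 fold change of 0.42 (SE 0.29) was 0.03 without ISO replicate 2, 0.57 without ISO replicate 1 and 0.59 without ISO replicate 3.

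**Figure D2:**
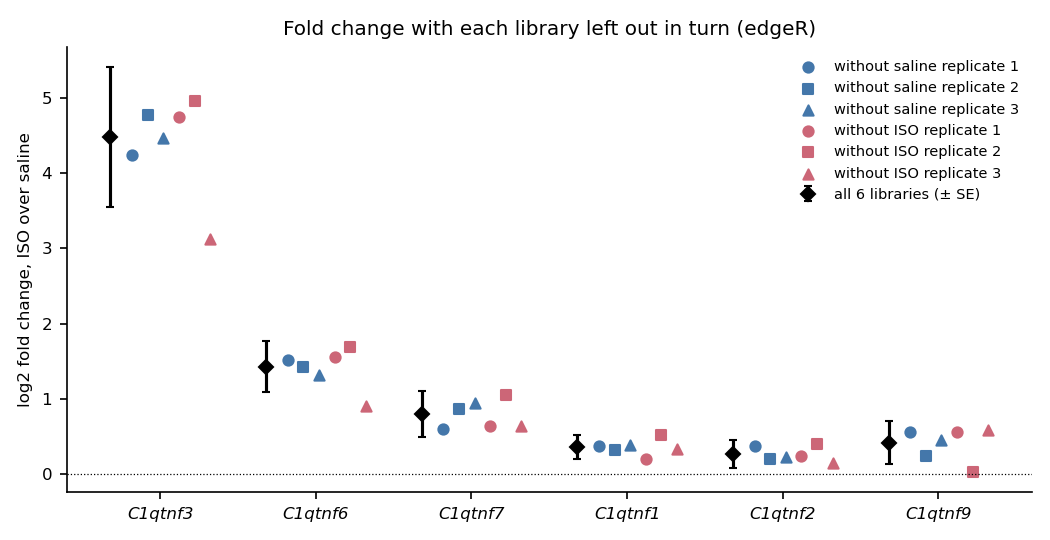
Log2 fold change of ISO over saline (y axis) for each of the 6 genes (x axis) with all libraries (black, ± SE) and with each library left out in turn (blue saline, red ISO). C1qtnf3 drops to 3.12 and C1qtnf6 to 0.91 without ISO replicate 3, and C1qtnf9 drops to 0.03 without ISO replicate 2.

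All 6 members passed the filter on low counts, and all 6 fitted changes were above 0, with a median of 0.61 against 0.02 over all 13766 tested genes. C1qtnf3 alone was called by edgeR at an adjusted p under 0.05, where 2.97% of tested genes were called in either direction and 1.47% were called higher. Since that contrast chose the members, nothing is read from this count. Groups did not overlap for 2 members, both higher in ISO, as for 14.1% of tested genes. A log2 fold change larger than that of C1qtnf6 was found in 2.14% of tested genes, larger than that of C1qtnf7 in 7.30%, C1qtnf9 in 17.7%, C1qtnf1 in 20.6% and C1qtnf2 in 26.5%. Over all tested genes TMM scaling gave 203 called higher and 206 called lower, against 280 and 123 without scaling. The median of all genes was then 0.13 in place of 0.02, and the members stood at 0.38 for C1qtnf2 to 4.62 for C1qtnf3, all still above that median.

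The call of C1qtnf3 depended on which libraries entered the fit. Members called numbered 0 without saline replicate 1, 2 or 3 and 0 without ISO replicate 1. Few genes of any kind were called higher in these 4 fits, 0.0996%, 0.0427%, 0.0497% and 0.0645% of those tested. The log2 fold change of C1qtnf3 was 4.24 without saline replicate 1 and 4.74 without ISO replicate 1. C1qtnf3 was called without ISO replicate 3, and C1qtnf1, C1qtnf3, C1qtnf6 and C1qtnf7 were called without ISO replicate 2. In these 2 fits 1.23% and 3.5% of all tested genes were called higher. With all libraries, DESeq2 called 2 members, C1qtnf3 and C1qtnf6, where it called 10.2% of tested genes, and voom called 0 members and 2.39% of tested genes. The series' own rule asks for a log2 change above 0.5 and an unadjusted p below 0.05, and was applied here to the edgeR fit. It took C1qtnf3, C1qtnf6 and C1qtnf7, where 8.67% of tested genes were higher by it.

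Profiles were compared over the 6 libraries as log2 CPM centred on each gene's saline mean, with the root mean square difference as the measure of likeness. Among the members, C1qtnf1 and C1qtnf2 were closest at 0.15, and C1qtnf3 and C1qtnf9 were farthest apart at 2.56. This distance falls with the size of a gene's changes, so genes that differ little are close to each other.

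Of all tested genes at 1 CPM or more, the profile nearest to C1qtnf3 was that of Gpnmb, a glycoprotein gene of macrophages, at 0.39. Next came Cthrc1, a matrix gene of activated fibroblasts, at 0.56, Adam12, a membrane metalloprotease gene, at 0.62, Tnc, the gene of tenascin C, at 0.83, and Lilrb4, an inhibitory receptor gene of myeloid cells, at 0.86. All 5 were highest in ISO replicate 3, as C1qtnf3 was, which choosing genes by likeness over these same libraries selects for. Log2 CPM was computed with a prior count of 2, which shrinks changes most in genes with few counts. C1qtnf3 had 3 to 7 counts in the saline libraries and Gpnmb had 159 to 236. The order of these 5 genes may therefore depend on the prior count, and no ranking without it was made. Adam12 stood at 0.545, 0.813 and 0.379 CPM in the saline libraries and at 3.19, 1.43 and 16.2 CPM in the ISO libraries, in replicate order. In the other members' neighbourhoods, C1qtnf6 was nearest to Cercam at 0.09 and to Col5a2, a fibrillar collagen gene, at 0.11. Col5a2 had 109.8, 108 and 91.4 CPM in saline replicates 1 to 3, and its ISO libraries had 197, 187 and 444 CPM. C1qtnf7 was nearest to Gli3, a hedgehog transcription factor gene, at 0.07 and to Dynlt1 at 0.11. C1qtnf1 was nearest to Net1 and Fam149a, both at 0.07, C1qtnf2 to Capn1 at 0.07, and C1qtnf9 to Ccdc157 at 0.12 and Tmem134 at 0.14.

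**Figure D3:**
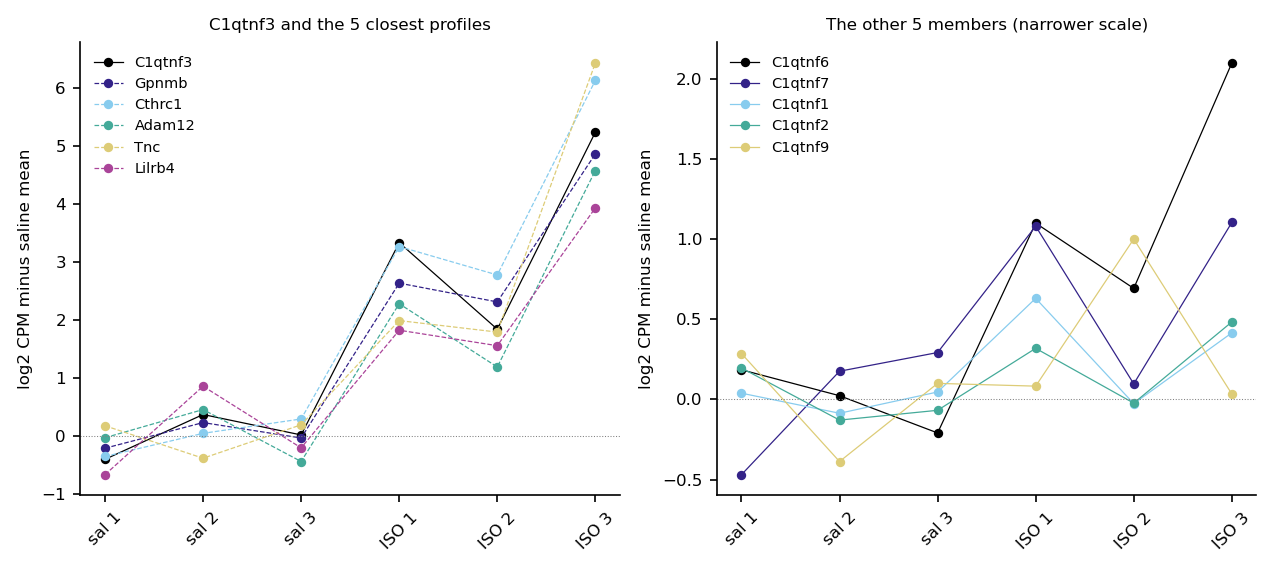
Log2 CPM minus the gene's saline mean (y axis) in each library (x axis); thin lines join the values of a gene and imply no order of replicates. Left, C1qtnf3 and its 5 nearest genes, chosen by likeness over these libraries and so sharing its peak in ISO replicate 3. Right, the other 5 members, where C1qtnf9 peaks in ISO replicate 2.

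Other genes of the C1q domain superfamily, with the related Emilin3, were taken from a list of 26, all found in the table, of which 12 passed the filter. Of these 12, 4 rose, none fell and 8 were not called, with a median log2 fold change of 0.66 against 0.02 over all tested genes, where 2.97% were called. C1qtnf5, another CTRP gene outside the members, rose from saline values of 10.1, 7.13 and 4.80 CPM to ISO values of 21.8, 22.4 and 32.7 CPM, given for replicates 1 to 3. The groups did not overlap, and the ISO libraries lay closer together than for C1qtnf3 or C1qtnf6. Its log2 fold change was 1.80 (SE 0.28, edgeR adjusted p = 0.0204). C1qtnf5 is known to share a transcript with Mfrp in other mammals, but Mfrp had only 0 to 3 counts in any library.

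The largest rise of that list was in a collagen gene. Col8a1, a short-chain collagen whose end domain is of the C1q type, rose from 18.3, 19.8 and 17.0 CPM to 47.6, 56.6 and 132 CPM in replicates 1 to 3, a change of 2.10 (SE 0.36, edgeR adjusted p = 0.0269). The complement genes C1qa and C1qc, which encode chains of C1q itself, rose by 1.15 (SE 0.14) and 0.91 (SE 0.11), both with an edgeR adjusted p of 0.0138. The partner gene C1qb, named after its values were seen, stood at 0.81 and was not called (edgeR adjusted p = 0.0804). The naming rule chose 15 called genes that are not members. Of these, 1 kept its call without saline replicate 1, 2 or 3 in turn (Thbs4, Nppa and Thbs4) and 2 without ISO replicate 1 (C1qa and Thbs4). Without ISO replicate 2 all 15 kept it, and without ISO replicate 3 all but Cfd did.

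Of the remaining CTRP genes, C1qtnf4 had 0 to 7 counts and C1qtnf12 had 3 to 8 counts in any library, and both failed the filter. The adiponectin gene Adipoq had 14 counts in saline replicate 2, 30 in ISO replicate 1 and 0 in the other 4 libraries, so no fold is given.

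**Figure D4:**
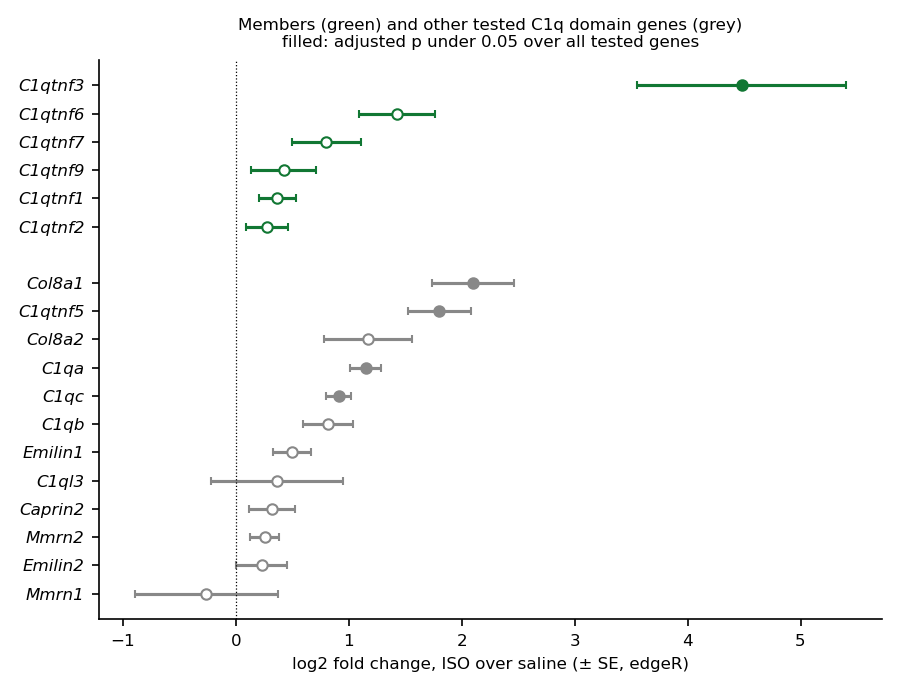
Log2 fold change of ISO over saline (x axis, ± SE from edgeR) for the 6 members (green) and the 12 tested genes of the C1q domain list (grey); filled points were called at an adjusted p under 0.05 over all tested genes. C1qtnf3 lies at 4.48, and Col8a1, C1qtnf5, C1qa and C1qc are the called genes among the others.

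Receptors and binding partners reported for CTRPs and adiponectin were not called. Of 9 listed genes, 8 were tested, with a median of 0.08. By edgeR 0 were called and 2 had an unadjusted p under 0.05, while DESeq2 called 1 and voom 0. Over all 13766 tested genes, 1193 higher and 619 lower had an unadjusted edgeR p under 0.05 and a log2 change above 0.5 in size. Genes with smaller changes and such a p come on top of these. Adipor1, the receptor gene most tied to CTRP9 and named after its values were seen, stood between 165 and 174 CPM in saline and between 166 and 176 CPM in ISO. Its log2 fold change was −0.01 (SE 0.10, edgeR adjusted p = 0.976). Among the most abundant listed genes, Lamp1, a lysosomal membrane protein gene, gave 0.15 (SE 0.12) and Cdh2, the N-cadherin gene, gave −0.31 (SE 0.12). Groups did not overlap for Cdh2, lower in ISO, and Cdh13, higher in ISO, each 12.5% of the tested list. Over all tested genes this held for 14.6% and 14.1%. Cdh13, named after its values were seen, stood at 73.1 to 90.3 CPM in saline and 103 to 124 CPM in ISO. It changed by 0.46 (SE 0.12, edgeR adjusted p = 0.0773).

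Genes of AMP-activated kinase and Akt signalling, through which several CTRPs act, also held no call. All 17 were tested, with a median of −0.20. By edgeR 0 were called and 2 had an unadjusted p under 0.05, DESeq2 called 1 and voom 0. Every ISO library lay below every saline library for 6 of the 17, or 35.3%, where 14.6% of all tested genes did so. The most abundant were Akt1 at −0.32 (SE 0.15) and the acetyl-CoA carboxylase gene Acacb at 0.11 (SE 0.20).

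Enzymes and chaperones that modify collagen stalks or link chains by disulfides numbered 14, all tested, with a median of 0.24 that was 0.02 without ISO replicate 3. By edgeR 0 were called and 6 had an unadjusted p under 0.05, DESeq2 called 2 and voom 0. Groups did not overlap for 4 genes higher in ISO (28.6%) and 3 lower (21.4%), where 14.1% and 14.6% of all tested genes did so. The most abundant were P4hb, the protein disulfide isomerase gene, at 0.26 (SE 0.20), and the collagen chaperone gene Serpinh1 at 0.30 (SE 0.29). Serpinh1 stood at 248, 231 and 498 CPM in ISO replicates 1 to 3 and was thus again highest in replicate 3.

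The protein-coding genes next to each member in the RefSeq annotation of GRCr8 were examined for the same change. Groups did not overlap for Cant1, Engase and Amacr, higher in ISO, and Il2rb, Spata13 and Mipep, lower. Over all tested genes 14.1% were so higher and 14.6% lower. Of 12 such neighbours, 11 were tested and 1 was called, where 2.97% of all tested genes were called. The called neighbour was Il2rb, the interleukin 2 receptor beta gene beside C1qtnf6. It fell by 0.73 on the log2 scale (SE 0.12, edgeR adjusted p = 0.022), in the opposite direction to C1qtnf6, from 21.0 to 22.3 CPM in saline to 12.4 to 13.4 CPM in ISO. Beside C1qtnf3, Rai14 gave 0.41 (SE 0.23) and Amacr gave 0.44 (SE 0.19). Rai14 stood at 25.9, 22.1 and 40.3 CPM in ISO replicates 1 to 3, in the same library order as C1qtnf3. Amacr stood at 15.8, 21.4 and 16.5 CPM in these libraries and was highest where C1qtnf3 was lowest within ISO. The other neighbours ranged from −0.54 for Spata13, beside C1qtnf9, to 0.49 for Engase, beside C1qtnf1.

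Summed markers of fibroblasts, activated fibroblasts and macrophages had the same order of ISO libraries as C1qtnf3 and C1qtnf6. The first principal component put the ISO libraries in this order as well. The share of all tested genes with this order was not counted, here or where the order is given for single genes. Single genes carried much of these sums. In ISO replicate 3 they were Postn at 2025 CPM (activated fibroblast), Col1a1 at 6356 CPM (fibroblast) and Lyz2 at 1030 CPM (macrophage). Postn and Col1a1 were named after their values were seen. Among the other named markers, Aebp1 and Dpt had this order, whereas Thbs4, Scara5 and Cd163 did not, nor did Lyz2. The summed level of 10 activated fibroblast genes lay between 115 and 170 CPM in saline while the sums of ISO replicates 1 to 3 were 722, 616 and 2993 CPM, the same library order as C1qtnf3. Of these 10, 6 rose, none fell and 4 were not called, with a median of 2.05 that was 1.11 without ISO replicate 3. Thbs4, a thrombospondin gene, changed by 5.51 (edgeR adjusted p = 0.0115) and Aebp1, a matrix gene, by 1.00 (edgeR adjusted p = 0.019). DESeq2 called 8 of them and voom 5, and 9 had an unadjusted p under 0.05 by edgeR. General fibroblast markers rose in 3 of 10, among them Scara5 and Dpt, where 1.47% of all tested genes were called higher. An unadjusted p under 0.05 was reached by all 10, groups did not overlap for 9, all higher in ISO as for 14.1% of all tested genes, and DESeq2 called 8 and voom 3. They summed to 2177 to 2574 CPM in saline and 3564 to 10320 CPM in ISO.

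Macrophage markers rose in 3 of 8, among them Lyz2, which encodes lysozyme, at 2.44 (SE 0.46) and the scavenger receptor gene Cd163 at 1.11 (SE 0.14). An unadjusted p under 0.05 was reached by all 8, groups did not overlap for 7, all higher in ISO, and DESeq2 called 7 and voom 2. Over all tested genes, edgeR called 1.47% higher and 14.1% did not overlap with ISO higher. DESeq2 called 10.2% of them and voom 2.39%, in either direction. The share of all tested genes with an unadjusted p under 0.05, whatever the size of change, is not given for any list. Macrophage markers summed to 233 to 313 CPM in saline and to 620, 593 and 1515 CPM in ISO replicates 1 to 3. With each saline library left out in turn, calls numbered 0 among fibroblast markers, 0 among macrophage markers and 0 to 1 among activated fibroblast genes. Without ISO replicate 1 they numbered 0, 0 and 2 in the same order of lists, without ISO replicate 2 they numbered 8, 6 and 6, and without ISO replicate 3 they numbered 3, 4 and 6. No member of the fibroblast, activated fibroblast or macrophage lists was at 0 in any library. Their part in the changes of C1qtnf3 and C1qtnf6 was not tested.

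Of 14 cartilage genes 6 were tested and 0 were called by edgeR (2 had an unadjusted p under 0.05, DESeq2 called 1 and voom 0), and their summed level was 53.4, 15.3 and 32.4 CPM in ISO replicates 1 to 3 against 7.39 to 33.7 CPM in saline. Between 2 and 6 of the 14 were at 0 in each library. Hapln1, a cartilage link protein gene, stood at 4.70, 2.19 and 1.58 CPM in saline and at 25.7, 4.43 and 10.9 CPM in ISO, in replicate order, a change of 2.28 that was not called (SE 0.64, edgeR adjusted p = 0.0882). Col11a1, a fibrillar collagen gene named after its values were seen, had saline values of 0.885, 0.375 and 0.126 CPM. Its ISO values of 2.44, 1.25 and 13.6 CPM had the same library order as C1qtnf3, and its change of 3.64 was not called (SE 1.00, edgeR adjusted p = 0.0841). Of 8 adipocyte genes 3 were tested, and Cfd, the factor D gene, rose by 1.08 (SE 0.22, edgeR adjusted p = 0.0404). The defining adipocyte genes Adipoq, Plin1, Cidec, Lep and Retn stood at most at 1.88 CPM in any library. Of the 8 genes, 4 were at 0 in each of saline replicates 1 and 3 and ISO replicates 2 and 3. None was at 0 in saline replicate 2 or ISO replicate 1. Summed adipocyte markers were highest in ISO replicate 2, at 913 CPM, the library where C1qtnf9 was highest, against 597 and 467 CPM in ISO replicates 1 and 3. Most of that sum came from Fabp4 and Plin4, which other heart cells also express. The part of these markers in the level of C1qtnf9 was not tested.

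Cardiomyocyte markers summed to 40135 to 50929 CPM in saline and to 35569, 43398 and 29584 CPM in ISO replicates 1 to 3, highest within ISO in the same replicate 2. Endothelial, pericyte and smooth muscle and cardiomyocyte genes held 0 calls by edgeR among 7, 8 and 8 tested genes, and 1, 2 and 2 of them had an unadjusted p under 0.05. DESeq2 called 1, 1 and 2 of them and voom 0, 0 and 0. The atrial list held 1 called gene of 3 tested, Nppa, the atrial natriuretic peptide gene, at 3.40 (SE 0.56, edgeR adjusted p = 0.0244). Nppa stood at 1125, 1486 and 901 CPM in ISO replicates 1 to 3. It was thus highest in replicate 2, where Myl7 was at 1.06 CPM. The median log2 fold change of the atrial list was 3.59, and 0.51 without ISO replicate 1. Without the ISO library that held atrial RNA, C1qtnf1 stood at 0.20 and C1qtnf7 at 0.65, as given above, and C1qtnf3, C1qtnf6 and C1qtnf9 were larger than with it.

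**Figure D5:**
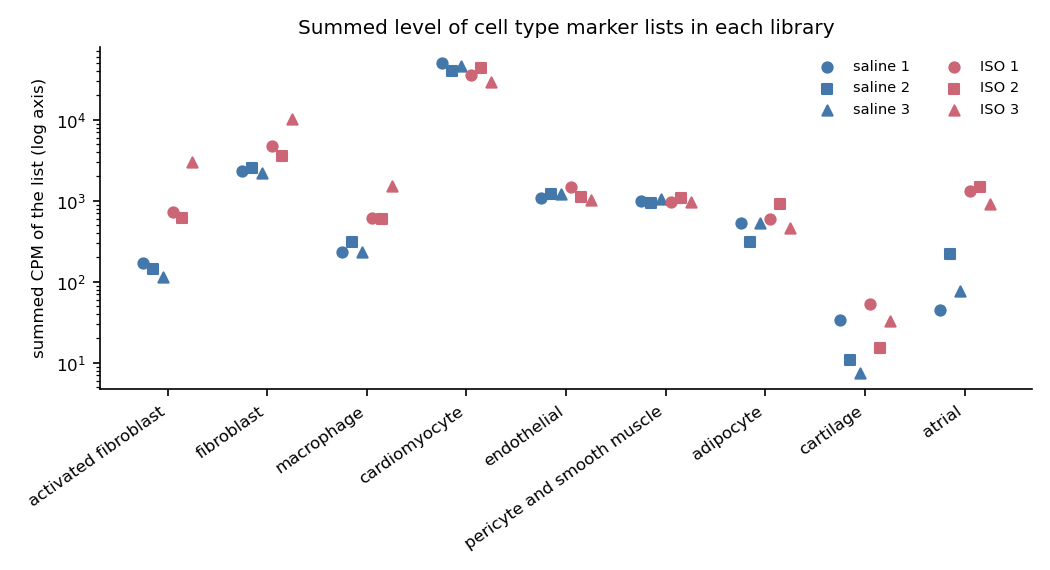
Summed TMM-scaled CPM of each cell type marker list (y axis, log scale) in every library (blue saline, red ISO, marker shape by replicate number). Activated fibroblast and macrophage sums peak in ISO replicate 3, at 2993 and 1515 CPM, and the adipocyte sum peaks in ISO replicate 2, at 913 CPM.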

How the data were processed

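RNA of 6 rat hearts, 3 saline and 3 ISO, was sequenced. Per the series design text, the authors aligned 150 bp paired reads with HISAT2 and counted them with featureCounts, and they deposited raw counts of reads per gene as whole numbers. The sources used here give neither tool versions nor use of strand. A mouse build, mm10, stands in the submitters' processing notes, but named rows carry rat Ensembl identifiers. Placeholder rows without a gene name (1006 of 33889, 0.981% to 1.32% of counts) were left out. All pairs of libraries differed beyond sampling noise.

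The main test was edgeR 4.0.16, run in R 4.3.3 (quasi-likelihood F test, TMM scaling, default count filter) on 13766 genes, with Benjamini-Hochberg adjustment over all of them and a threshold of 0.05. SE is the log2 fold change divided by the square root of F. Log2 CPM used a prior count of 2. DESeq2 1.42.0 and limma 3.58.1 (voom) were among the 16 alternatives. The fits were checked on simulated counts with 200 changed genes. At a threshold of 0.05, 13 of 147 calls were false by edgeR, 33 of 179 by DESeq2 and 10 of 139 by voom. By edgeR, 10% of the 1.5-fold changes and 68% of the 2-fold changes were recovered. Members and lists were chosen with earlier results of these data known. Named genes were the members, up to 4 called genes per pathway list and 2 per cell type list (otherwise the most abundant), the nearest profiles and the neighbouring genes; exceptions are marked, and 1 gene that the rule names is not reported here. Of 146 list entries 145 were found, without Pecam1. Each rat gave 1 library, so p-values measure the spread between 3 rats a group.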

Additional observations from a re-analysis of the deposited data

How the results depend on the processing

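The 6 members kept log2 fold changes above 0 under all 16 alternatives, but calls did not hold. Against 1 member called, 2 were called with no filter or by DESeq2, 3 by the series' own rule, and 0 by voom or at an adjusted p under 0.01; leaving out single libraries gave 0 to 4. Against 4 called genes in the pathway lists, DESeq2 gave 10, the series' rule 9 and an adjusted p under 0.01 gave 0, and leaving out single libraries gave 0 to 6. With the replicate number as a block, 0 members and 1 pathway gene were called, and 0 genes of the fibroblast, activated fibroblast and macrophage lists. Same-numbered libraries deviated together weakly or not at all (0.09, −0.10 and 0.02), and no label says that a number marks a shared source, so the numbers were not taken to pair the samples. Over the whole table the block left 15 genes higher and 13 lower, an adjusted p under 0.01 left 4 and 7, DESeq2 gave 752 and 653, and the series' rule gave 1193 and 619. Leaving out single libraries gave 6 to 492 higher and 5 to 346 lower, with the lowest total, 7 and 5, without saline replicate 3. The cause of these shifts was not tested. Among named genes 7 changed sign under some setting. Slu7 was 0.070 without scaling, and Abcc9 was −0.00506 with no filter and −0.00577 without mitochondrial genes. Leaving out single libraries, the ranges were −0.035 to 0.058 for Abcc9, −0.11 to 0.27 for Acacb, −0.050 to 0.18 for Cc2d2a, −0.85 to 0.15 for Ccnjl, −0.14 to 0.49 for Serpinh1, −0.12 to 0.020 for Slu7 and −0.32 to 0.74 for Vwf. Depth limits C1qtnf3 most, since its saline values rest on 3 to 7 counts.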
